A study of Mus musculus with 6 samples.

Results

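Complex I of the respiratory chain was followed through its nuclear genes in spinal cords dissected whole from E13.5 mouse embryos. The members were all genes whose symbol belongs to the Nduf family of subunits (Ndufa, Ndufab1, Ndufb, Ndufc, Ndufs and Ndufv) or of assembly factors (Ndufaf), with at least 10 counts in 3 or more libraries. Of the 55433 genes counted, 45 had such a symbol, and 44 were members: 36 listed as subunits and 8 assembly factors. All 44 were among the 17711 genes tested. The symbol left out by the count minimum was Ndufs3, a core subunit of the quinone-reducing module. It was listed at 0 in all 6 libraries, as was its neighbour Kbtbd4, so its level is not known from these counts. One member, Ndufa4, carries a complex I name but is now placed in complex IV (cytochrome c oxidase), and it is given apart where it matters.

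The study set 3 embryos labelled NFIAcKO, of genotype NFIA-ff with Nestin-cre, against 3 labelled control, of genotype NFIA-ff, all of strain C57BL/6J. Its design text asks what the transcription factor NFIA does while motor neurons develop. Both groups carried the NFIA-ff allele, and only the NFIAcKO embryos carried cre. Nestin-cre is used to recombine alleles in neural progenitors and the cells they give rise to, and vessel, blood and meningeal cells in a dissected cord are not its target. The labels do not give litters. They also do not say whether a library is 1 embryo, beyond the design's count of 3 embryos in each group.

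Complex I (NADH:ubiquinone oxidoreductase) takes electrons from NADH, passes them along a chain of iron-sulfur clusters to ubiquinone, and pumps protons across the inner mitochondrial membrane. It is shaped like an L. The matrix arm holds the N module, where NADH is oxidised, and the Q module, where ubiquinone is reduced. The membrane arm is built around subunits encoded by mitochondrial DNA (mtDNA), and its parts are named after them: ND1, ND2, ND4 and ND5. Core subunits carry out catalysis and are conserved in bacteria, accessory subunits surround them, and assembly factors help to build the complex and are absent from the finished enzyme. Neurons draw heavily on oxidative phosphorylation, and inherited loss of complex I subunits or assembly factors is known in humans as a cause of Leigh syndrome, a disease of the brainstem and basal ganglia.

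Nfia was higher in the libraries labelled NFIAcKO. Its level was 106, 108 and 119 CPM (counts scaled to a common library total, with size factors from the TMM method) in NFIAcKO replicates 1 to 3, against 60.1, 59.1 and 79.2 CPM in control replicates 1 to 3. The groups did not overlap, and the log2 fold change was 0.75 (SE 0.11, adjusted p = 0.0031 in edgeR's quasi-likelihood test). Exons left by cre are counted as well, and the deletion itself is not tested by gene counts, but the direction goes against the label. All directions below are those of libraries labelled NFIAcKO relative to libraries labelled control.

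Libraries held 43393053 to 51465763 counts in genes. Spinal Hox markers summed to 1863 to 2257 CPM in NFIAcKO and 1607 to 1978 CPM in control libraries, while the forebrain markers Emx1, Emx2 and Six3 stood under 1 CPM. The 6 markers of neurons summed to 7275 to 7579 CPM in NFIAcKO and 6304 to 6699 CPM in control libraries, and 2 of them rose (Elavl3 and Dcx). The 6 progenitor markers summed to 2221 to 2495 CPM in NFIAcKO and 2321 to 2511 CPM in control libraries, with 1 rise (Nes) and 2 falls (Fabp7 and Hes5). The 6 motor neuron markers summed to 177 to 190 CPM in NFIAcKO and 153 to 175 CPM in control libraries. Endothelial markers (5 tested) summed to 310 to 332 CPM in NFIAcKO and 245 to 291 CPM in control libraries, with 3 rises and 1 fall. Microglial markers (6 tested) summed to 62.8 to 69.4 CPM in NFIAcKO and 76.6 to 84.6 CPM in control libraries, with 1 fall. Mesenchymal markers (6 tested) summed to 1512 to 2067 CPM in NFIAcKO and 1299 to 1666 CPM in control libraries, with 1 rise, and erythroid markers (7 tested) to 1410 to 2072 CPM in NFIAcKO and 1721 to 1966 CPM in control libraries. Sensory ganglion, cartilage and skeletal muscle markers overlapped between the groups. The part of these cell types in the results below was not tested.

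Most nuclear subunits were lower in the libraries labelled NFIAcKO. Of 36 subunits 25 fell, none rose and 11 did not pass the test, with a median log2 fold change of -0.40 and a range of -0.70 to -0.02. A gene is said to fall or rise at a Benjamini-Hochberg adjusted p under 0.05 over all tested genes. By that rule 6.08% of all tested genes fell and 7.86% rose, and the median over all of them was -0.01. At an unadjusted p under 0.05, 31 subunits were lower and none higher, where 2488 of the 17711 tested genes were lower and 2792 higher. DESeq2 called 28 subunits lower and none higher, where it called 10.6% of its tested genes lower. Among tested genes with transcripts of the length of the subunits 17.0% fell. With a trend in transcript length and GC content removed, as described below, 9 subunits fell with length taken over all exons (median -0.18; 3.87% of all tested genes fell) and 4 with that of the principal transcript (median -0.16; 2.72%). Leaving out 1 library gave 3 to 32. Without Ndufa4 the count was 24 of 35. In bulk tissue, fewer cells of a type and less RNA per cell cannot be told apart.

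Assembly factors were lower by a smaller median, and few passed. Of the 8 Ndufaf genes 1 fell (Ndufaf5), none rose and 7 did not pass, with a median of -0.27 and a range of -0.64 to -0.18. Of all tested genes 6.08% fell, and 17.0% of those with transcripts of the length of the subunits. With 8 genes, a count of 1 is too small to set against these shares. At an unadjusted p under 0.05, 5 were lower and none higher, where 2488 of all 17711 tested genes were lower. DESeq2 called 2 lower and none higher, where it called 10.6% of its tested genes lower. All 44 members had a log2 fold change below 0. The medians of subunits and assembly factors differed by -0.13 log2 units in the counts as deposited, and by -0.03 and -0.02 with the length and GC trend removed. This difference was not tested. The SE of a gene was alike, with medians of 0.11 for subunits and 0.12 for assembly factors, while the median level of a subunit was 51.0 CPM in NFIAcKO and 64.9 CPM in control libraries and that of an assembly factor 19.1 CPM in NFIAcKO and 22.7 CPM in control libraries.

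Summed over genes, the 35 subunits without Ndufa4 came to 1875, 2024 and 1834 CPM in NFIAcKO replicates 1 to 3, against 2422, 2747 and 2156 CPM in control replicates 1 to 3. The groups did not overlap, and the NFIAcKO mean (1911 ± 100 CPM, SD, n = 3) was 78.3% of the control mean (2442 ± 296 CPM). The 8 assembly factors summed to 146, 152 and 138 CPM in NFIAcKO libraries, against 176, 202 and 157 CPM in control libraries. Here too the groups did not overlap, and the NFIAcKO mean (145 ± 6.92 CPM) was 81.3% of the control mean (178 ± 22.3 CPM). With 3 libraries against 3, an exact two-sided permutation test of such a sum cannot go below p = 0.10, so none is given.

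**Figure D1:**
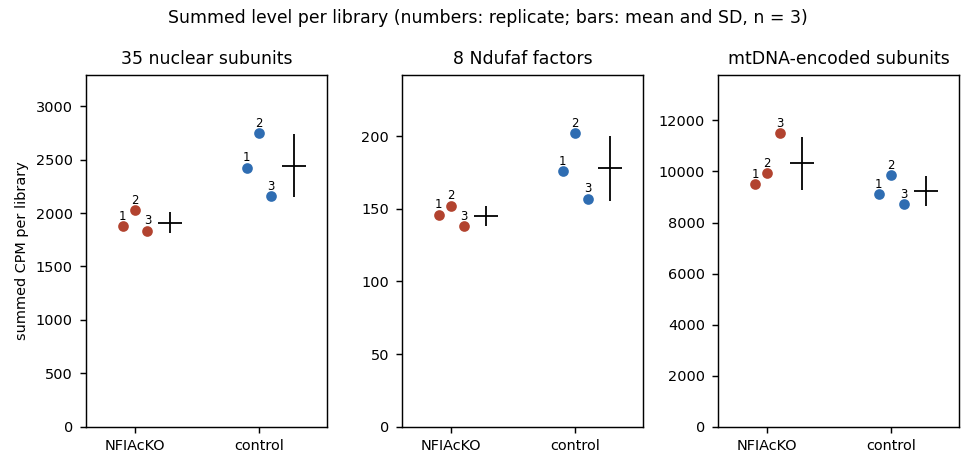
Summed CPM per library (vertical axis, from 0) of the 35 nuclear subunits without Ndufa4, the 8 Ndufaf assembly factors and the mtDNA-encoded subunits, with NFIAcKO on the left and control on the right of each panel; points are libraries numbered by replicate, and bars show the mean and SD (n = 3). The NFIAcKO libraries lie below all control libraries for subunits (1834 to 2024 against 2156 to 2747 CPM) and for assembly factors, and not for mtDNA-encoded subunits.

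The control libraries were spread more widely than the NFIAcKO libraries. Control replicate 2 had the highest level of the 6 libraries for 42 of 44 members, and control replicate 3 was the lowest control library for 41. The SD was larger among control libraries for 38 members, and the median coefficient of variation of a subunit was 6.24% in NFIAcKO and 14.1% in control libraries. All 3 NFIAcKO libraries lay below all 3 control libraries for 28 subunits and for 2 assembly factors (Ndufaf5 and Ndufaf8), where 16.1% of all tested genes did so, and 14 members had groups that overlapped. File names carry a number that the labels do not explain: replicates 1 and 2 of both groups share one, and replicate 3 of both groups shares another. Subunits without Ndufa4 were lower in the NFIAcKO libraries within each number, at 1875 and 2024 CPM in NFIAcKO against 2422 and 2747 CPM in control replicates 1 and 2, and at 1834 CPM in NFIAcKO against 2156 CPM in control replicate 3.

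**Figure D2:**
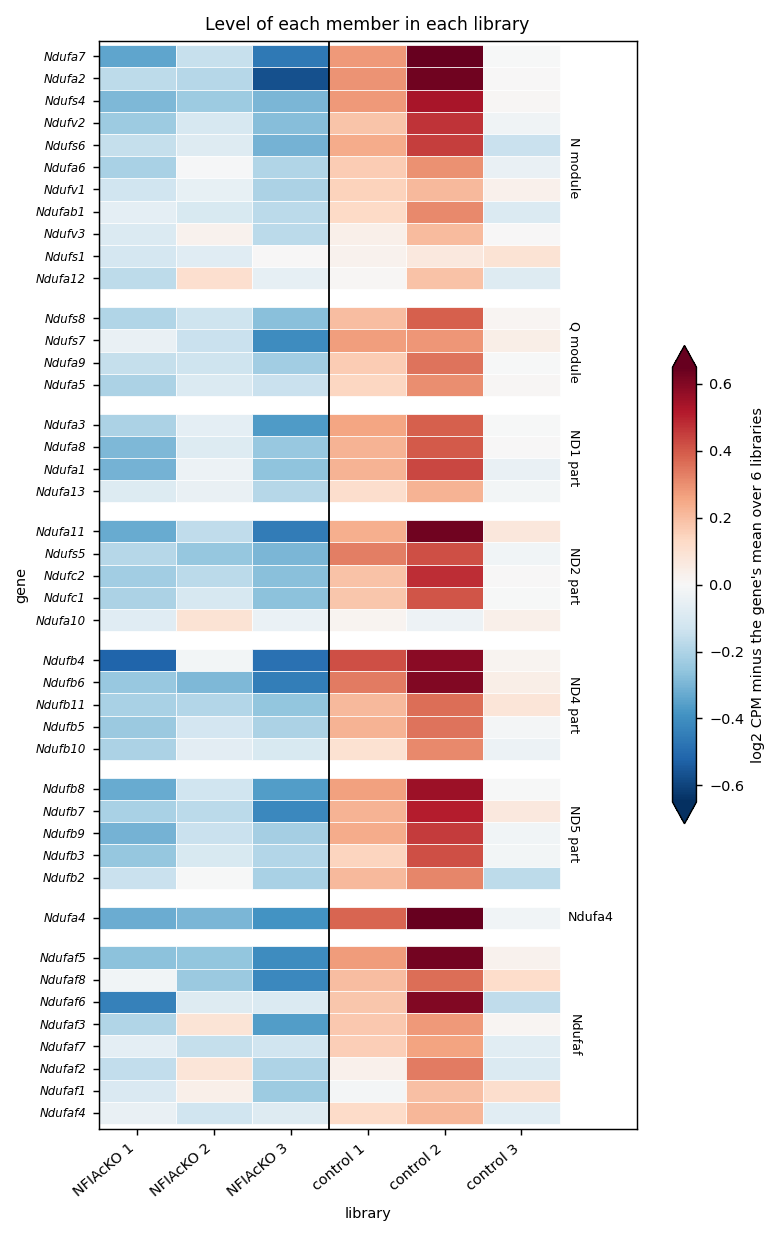
Level of 43 members (rows, grouped by part of the complex) in each library (columns, NFIAcKO replicates 1 to 3 and then control replicates 1 to 3), as log2 CPM minus the gene's mean over the 6 libraries; blue is below that mean and red above it. Control replicate 2 is the reddest column (highest library for 42 of all 44 members), and control replicate 3 is the palest control column (lowest control library for 41).

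Leaving out 1 library gave between 3 and 32 subunits that fell, against 25 with all 6. It was 5 without NFIAcKO replicate 1 (0.764% of all tested genes fell in that fit), 18 without NFIAcKO replicate 2 (2.37%) and 3 without NFIAcKO replicate 3 (0.824%). It was 8 without control replicate 1 (1.21%), 15 without control replicate 2 (2.28%) and 32 without control replicate 3 (13.55%). The median of the 36 subunits moved less, between -0.51 without control replicate 3 and -0.30 without control replicate 2. Among assembly factors 6 fell without control replicate 3, none without NFIAcKO replicate 3, and 1 in each of the other fits. The members called in all 6 of these fits were 3 subunits, Ndufs4, Ndufb6 and Ndufb11. Of these, Ndufb11 was not called with the length and GC trend removed, as described below. Ndufb7, Ndufa4 and Ndufaf5 were called in 5, each missing the threshold only without NFIAcKO replicate 3 (adjusted p = 0.0526, 0.0509 and 0.057).

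Promoters of 4 members are printed. Ndufaf5 is the assembly factor that fell, and Ndufa10 the subunit with the largest p. Ndufs4 and Ndufa11 fell in the counts as deposited and in both fits of length described below. Ndufa7 and Ndufb6 did so too and are not printed, so these 4 promoters are a selection. Each is 300 bases from RefSeq (GRCm38.p6), from 250 bases before the annotated start to 50 after it, written 5′ to 3′ on the gene's strand. Capitals mark a searched motif: AAGATGG, a core that the factor YY1 binds, in Ndufs4; CGCANGCG, the core of the site of nuclear respiratory factor 1 (NRF1), in Ndufa11 and Ndufaf5; and GGGCGG, the GC box bound by Sp factors, read on the other strand in Ndufa10.
Ndufs4 (chr13:114388045-114388344, minus strand): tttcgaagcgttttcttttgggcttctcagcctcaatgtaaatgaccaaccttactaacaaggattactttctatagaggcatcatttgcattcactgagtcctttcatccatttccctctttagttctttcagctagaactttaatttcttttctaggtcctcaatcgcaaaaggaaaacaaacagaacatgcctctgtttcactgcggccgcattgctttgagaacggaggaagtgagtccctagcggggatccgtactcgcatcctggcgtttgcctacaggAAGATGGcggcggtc
Ndufa11 (chr17:56717512-56717811, plus strand): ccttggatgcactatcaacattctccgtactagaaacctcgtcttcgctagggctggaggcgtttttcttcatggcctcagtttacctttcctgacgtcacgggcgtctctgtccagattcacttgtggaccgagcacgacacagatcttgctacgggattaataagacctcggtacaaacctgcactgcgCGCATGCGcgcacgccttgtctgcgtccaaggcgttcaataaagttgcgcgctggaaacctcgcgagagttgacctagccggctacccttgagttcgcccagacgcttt
Ndufaf5 (chr2:140170396-140170695, plus strand): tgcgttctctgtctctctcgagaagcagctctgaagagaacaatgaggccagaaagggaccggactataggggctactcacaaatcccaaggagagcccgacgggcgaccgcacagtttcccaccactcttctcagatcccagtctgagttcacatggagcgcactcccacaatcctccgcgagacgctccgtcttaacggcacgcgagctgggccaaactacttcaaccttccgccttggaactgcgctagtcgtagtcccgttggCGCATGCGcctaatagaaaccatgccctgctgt
Ndufa10 (chr1:92473709-92474008, minus strand): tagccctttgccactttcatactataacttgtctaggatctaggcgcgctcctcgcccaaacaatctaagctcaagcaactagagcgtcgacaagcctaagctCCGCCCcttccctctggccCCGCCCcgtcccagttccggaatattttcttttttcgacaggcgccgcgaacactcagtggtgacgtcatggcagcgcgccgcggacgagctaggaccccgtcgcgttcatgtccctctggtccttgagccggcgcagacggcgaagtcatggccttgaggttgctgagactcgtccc

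The motif begins at base 286 of the window in Ndufs4, 192 in Ndufa11, 268 in Ndufaf5 and 104 in Ndufa10, where a second copy follows. A window was found for 39 of 44 members, 34 windows for 32 subunits and 7 for 7 assembly factors, and both strands were searched. CGCANGCG was in 12 of 34 subunit windows (35.3%) and 3 of 7 assembly factor windows (42.9%), against 14.6% of 15948 promoters of tested genes. Ndufa5 and Ndufa7 each have overlapping windows that hold the same copy, so each counts more than once. AAGATGG was in 20.6% of subunit windows and 14.3% of assembly factor windows, against 6.44%. GGGCGG was in 44.1% of subunit and 85.7% of assembly factor windows, against 58.8%. CCGGAAG, a core for ETS factors such as GABP, was in 8.82% of subunit and 28.6% of assembly factor windows, against 14.8%, and its last letters are the first of AAGATGG, so matches of these words can overlap. AAGGTCA, the single site of estrogen-related receptors, was in 8.82% of subunit windows and in none of 7 assembly factor windows, against 3.33%. TTGGCA, the single site of nuclear factor I proteins, of which NFIA is one, was in 17.6% of subunit and 14.3% of assembly factor windows, against 11.7%. These are matches of letters in 1 window per start, not measured binding.

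The N module holds the NADH end of the complex. Among its 11 tested members there were 5 falls and 6 without a call, with a median of -0.28. With the trend in principal transcript length and GC content removed, as described below, 2 of them fell. Of all tested genes 6.08% fell in the first fit and 2.72% in the second. Ndufv1, the core subunit that binds the flavin and takes electrons from NADH, stood at 95.8, 101 and 90.8 CPM in NFIAcKO libraries, against 116, 121 and 107 CPM in control libraries. All NFIAcKO libraries were lower, and the log2 fold change was -0.26 (SE 0.08, adjusted p = 0.0448), a call that was lost in 5 of the 6 fits without a library and kept without control replicate 3. Ndufv2, a core subunit with an iron-sulfur cluster beside the flavin, stood at 109, 119 and 106 CPM in NFIAcKO libraries, against 146, 178 and 126 CPM in control libraries. Here too the groups were apart, at -0.43 log2 units (SE 0.11, adjusted p = 0.02). Ndufs1, the largest core subunit and carrier of several clusters, stood at 117, 120 and 127 CPM in NFIAcKO libraries, against 129, 133 and 135 CPM in control libraries. The groups did not overlap but the difference was small and did not pass (-0.13, SE 0.07, adjusted p = 0.282).

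Among accessory subunits of the N module, Ndufs4, which joins late in assembly and whose loss in mice causes a Leigh-like encephalopathy, had the smallest p of the module. The gene spans bases 114287795 to 114388258 of chromosome 13 (GRCm38, minus strand). Its level was 60.9, 63.2 and 60.7 CPM in NFIAcKO libraries, against 90.7, 108 and 74.9 CPM in control libraries. The NFIAcKO libraries lay close together and all below control, and the log2 fold change was -0.56 (SE 0.11, adjusted p = 0.00749). Ndufa2, a small subunit with a thioredoxin-like fold, stood at 30.1, 29.8 and 22.8 CPM in NFIAcKO libraries, against 41.5, 52.6 and 33.9 CPM in control libraries. It fell by 0.63 log2 units (adjusted p = 0.0222), and 66 bases of its exons overlap Tmco6. Ndufa12, a subunit that takes the place of the assembly factor Ndufaf2, had the largest p of the module. It stood at 42.7, 51.8 and 46.2 CPM in NFIAcKO libraries, against 48.3, 54.8 and 45.4 CPM in control libraries, so the groups overlapped (-0.08, SE 0.10, adjusted p = 0.636). A pseudogene, Gm15920, shares 402 bases with Ndufa12 at 99.5% identity. The other accessory members were Ndufa7, which fell (-0.66, adjusted p = 0.0238), and Ndufs6, Ndufa6, Ndufab1 (the mitochondrial acyl carrier protein) and Ndufv3, which did not pass, at -0.38 to -0.16. Ndufs6 and Ndufab1 have near-identical copies elsewhere in the genome, so their counts are uncertain.

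The Q module carries electrons to ubiquinone. Ndufs8, a core subunit with iron-sulfur clusters, stood at 50.9, 53.1 and 48.2 CPM in NFIAcKO libraries, against 67.0, 76.3 and 58.8 CPM in control libraries. No NFIAcKO library reached a control library, and the log2 fold change was -0.41 (SE 0.10, adjusted p = 0.0144). Ndufs7, the core subunit that holds the last cluster before ubiquinone, stood at 31.7, 29.6 and 24.7 CPM in NFIAcKO libraries, against 39.5, 39.9 and 33.7 CPM in control libraries. It fell by 0.40 log2 units (SE 0.11, adjusted p = 0.0269), a call kept in 1 of 6 fits without a library. Ndufa9, an accessory subunit with a bound nucleotide, stood at 59.0, 59.9 and 56.2 CPM in NFIAcKO libraries, against 73.8, 84.0 and 65.5 CPM in control libraries, and fell by 0.35 log2 units (adjusted p = 0.0226). Ndufa5 fell as well (-0.30, adjusted p = 0.0342). The share over all tested genes was 6.08%, and 17.0% among those with transcripts of the length of the subunits. With the length and GC trend removed, as described below, none of the Q module genes named here was called in either fit. In those fits 3.87% and 2.72% of all tested genes fell, and Ndufa5 stood at -0.02 in both.

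Both arms of the complex held members that fell. The matrix arm had 9 falls among 16 members (median -0.33) and the membrane arm 15 among 19 (median -0.43). Of all tested genes 6.08% fell, and 17.0% of those with transcripts of the length of the subunits. Summed CPM was 79.5% of the control mean in the NFIAcKO libraries for the matrix arm (1018 ± 51.8 against 1279 ± 147 CPM, SD, n = 3 each) and 76.9% for the membrane arm (893 ± 48.5 against 1162 ± 149 CPM). With the trend in principal transcript length and GC content removed, as described below, both arms had a median of -0.16. In that fit 2 members fell in each arm (2.72% of all tested genes fell). With length taken over all exons, 3 fell in the matrix arm and 5 in the membrane arm (3.87% of all tested genes fell). No difference between arms was tested.

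In the proximal membrane arm, 3 of 4 members of the ND1 part fell (median -0.42) and 4 of 5 of the ND2 part (median -0.46). By comparison, 6.08% of all tested genes fell, and 17.0% of those with transcripts of the length of the subunits. With the principal transcript trend removed, 0 fell in the ND1 part and 1 in the ND2 part (2.72% of all tested genes fell). Ndufa8, an intermembrane-space subunit with paired cysteine motifs, stood at 57.5, 66.2 and 59.2 CPM in NFIAcKO libraries, against 82.2, 92.7 and 70.5 CPM in control libraries. All NFIAcKO libraries were lower, and it fell by 0.42 log2 units (SE 0.10, adjusted p = 0.0145). Ndufa3 and Ndufa1, small subunits that each span the membrane, fell by 0.43 and 0.41 log2 units (adjusted p = 0.0215 and 0.0311). The NFIAcKO libraries of Ndufa1 (32.1 to 38.7 CPM) overlapped the control libraries (38.4 to 53.6 CPM) by a little. Ndufa13, also known as the cell death regulator GRIM-19, stood at 71.4, 73.4 and 66.9 CPM in NFIAcKO libraries, against 82.3, 88.7 and 75.1 CPM in control libraries. It did not pass (-0.22, SE 0.08, adjusted p = 0.0935), and 375 bases of its transcript overlap Tssk6.

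Ndufa11, a membrane subunit that helps to hold complex I to complex III, had the smallest p of the ND2 part. It stood at 26.1, 29.2 and 23.9 CPM in NFIAcKO libraries, against 38.6, 50.7 and 34.4 CPM in control libraries. The groups were apart, at -0.65 log2 units (SE 0.13, adjusted p = 0.00955). The threshold was missed without NFIAcKO replicate 1 (adjusted p = 0.053) and NFIAcKO replicate 3 (0.0548), and 70 bases of its exons overlap Vmac. Ndufc2, a membrane subunit, stood at 66.7, 69.2 and 64.8 CPM in NFIAcKO libraries, against 89.1, 109 and 78.1 CPM in control libraries, and fell by 0.46 log2 units (adjusted p = 0.0134). Ndufs5, an intermembrane-space subunit, fell by 0.50 (adjusted p = 0.0162), and 319 bases of its transcript match the copy BC002163 at 99.4% identity. Ndufc1 fell by 0.40 (adjusted p = 0.0264). Ndufa10, an accessory subunit with a nucleoside kinase fold, stood at 116, 131 and 119 CPM in NFIAcKO libraries, against 124, 120 and 126 CPM in control libraries. The groups overlapped, and the log2 fold change was -0.02 (SE 0.08, adjusted p = 0.918).

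In the distal membrane arm, where most accessory subunits are of the Ndufb family, 4 of 5 members of the ND4 part and 4 of 5 of the ND5 part fell (medians -0.44 and -0.46). Over all tested genes 6.08% fell, and 17.0% of those with transcripts of the length of the subunits. With the principal transcript trend removed, 1 fell in the ND4 part and 0 in the ND5 part (2.72% of all tested genes fell). Ndufb6, a subunit that spans the membrane once, stood at 22.3, 21.6 and 19.4 CPM in NFIAcKO libraries, against 33.5, 40.2 and 27.3 CPM in control libraries. Again no NFIAcKO library reached a control library, and it fell by 0.67 log2 units (SE 0.13, adjusted p = 0.00706). Of its 659 exonic bases 257 overlap Smim27, so part of its count is uncertain. Ndufb11, an X-linked subunit whose loss in humans causes a microphthalmia and skin syndrome, stood at 61.7, 62.5 and 59.8 CPM in NFIAcKO libraries, against 82.5, 91.9 and 75.7 CPM in control libraries. It fell by 0.44 log2 units (SE 0.08, adjusted p = 0.0072). With the length and GC trend removed it was not called (-0.16 with summed exons and -0.17 with the principal transcript, adjusted p = 0.11 and 0.0998). Exons of Rbm10 overlap 117 bases of Ndufb11, and a copy, Gm6444, shares 456 of its bases at 96.9% identity. Ndufb5 fell by 0.39 (adjusted p = 0.0162), Ndufb10 did not pass (-0.26, adjusted p = 0.074), and Ndufb4 fell by 0.69 from a low count (adjusted p = 0.0328; 2.56, 3.63 and 2.63 CPM in NFIAcKO, against 4.92, 5.53 and 3.72 CPM in control libraries). Reads of Ndufb4 can be shared with Ndufb4c, which matches it over 390 bases at 100% identity.

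In the ND5 part, Ndufb7, an intermembrane-space subunit with paired cysteine motifs, stood at 55.9, 57.3 and 48.4 CPM in NFIAcKO libraries, against 75.7, 92.0 and 67.7 CPM in control libraries. All NFIAcKO libraries were lower, at -0.54 log2 units (SE 0.11, adjusted p = 0.00819). Ndufb8, a subunit often used on blots as a gauge of assembled complex I, stood at 72.3, 82.9 and 70.5 CPM in NFIAcKO libraries, against 109, 133 and 90.4 CPM in control libraries. It fell by 0.56 log2 units (SE 0.12, adjusted p = 0.0124), a call lost without NFIAcKO replicate 1 (adjusted p = 0.0668) and NFIAcKO replicate 3 (0.0603). Ndufb9 and Ndufb3 fell by 0.46 and 0.38 (adjusted p = 0.0147 and 0.0305). Ndufb2 did not pass, at 18.0, 19.9 and 17.2 CPM in NFIAcKO libraries, against 23.0, 24.8 and 17.7 CPM in control libraries (-0.25, SE 0.13, adjusted p = 0.191). Ndufa4, the complex IV subunit, had the lowest log2 fold change of all members. It stood at 112, 114 and 107 CPM in NFIAcKO libraries, against 182, 221 and 138 CPM in control libraries, and fell by 0.70 log2 units (SE 0.14, adjusted p = 0.0104). Its NFIAcKO libraries agreed closely while its control libraries were spread widely.

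Among the assembly factors, Ndufaf5 and Ndufaf8 work as a pair: Ndufaf5 hydroxylates an arginine of Ndufs7, and Ndufaf8 stabilises Ndufaf5. Ndufaf5 stood at 20.0, 20.1 and 18.1 CPM in NFIAcKO libraries, against 29.1, 37.1 and 24.5 CPM in control libraries. The groups did not overlap, and it fell by 0.64 log2 units (SE 0.13, adjusted p = 0.00955). The gene spans bases 140170649 to 140203689 of chromosome 2 (GRCm38, plus strand) and overlaps no other annotated exon. Ndufaf8 stood at 5.52, 4.75 and 4.19 CPM in NFIAcKO libraries, against 6.44, 7.20 and 6.09 CPM in control libraries. Its groups were apart too, but it missed the threshold (-0.45, SE 0.15, adjusted p = 0.06). It was called by DESeq2 (adjusted p = 0.0411) and, in edgeR, with upper quartile scaling (0.0459), with the file-name number as a block (0.0377) and without control replicate 3 (0.021). It was not called in the other settings, where adjusted p ran from 0.0574 to 0.46.

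The other Ndufaf genes had groups that overlapped, and none passed. Ndufaf3 and Ndufaf4 act together early on the Q module. Ndufaf3 stood at 18.1, 22.0 and 16.1 CPM in NFIAcKO libraries, against 23.4, 25.2 and 20.9 CPM in control libraries (-0.31, adjusted p = 0.109). Ndufaf4 stood at 39.2, 37.0 and 38.2 CPM in NFIAcKO libraries, against 44.1, 47.0 and 38.5 CPM in control libraries (-0.18, adjusted p = 0.199), and it was the highest of the family in CPM. Ndufaf6, a protein related to phytoene synthase, was at 4.81 to 6.15 CPM in NFIAcKO and 5.83 to 9.90 CPM in control libraries (-0.44, adjusted p = 0.121). Ndufaf7, a methyltransferase, was at 21.7 to 23.1 CPM in NFIAcKO and 23.0 to 29.0 CPM in control libraries (-0.24, adjusted p = 0.141). Ndufaf1, of the complex that builds the ND2 part, was at 15.0 to 18.1 CPM in NFIAcKO and 17.5 to 20.2 CPM in control libraries (-0.19, adjusted p = 0.262). Ndufaf2, the relative of Ndufa12 that holds its place during assembly, was at 18.0 to 21.9 CPM in NFIAcKO and 19.4 to 26.2 CPM in control libraries (-0.20, adjusted p = 0.317). Exons of B230220B15Rik overlap 1955 of the 2978 exonic bases of Ndufaf2, so its count is uncertain.

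**Figure D3:**
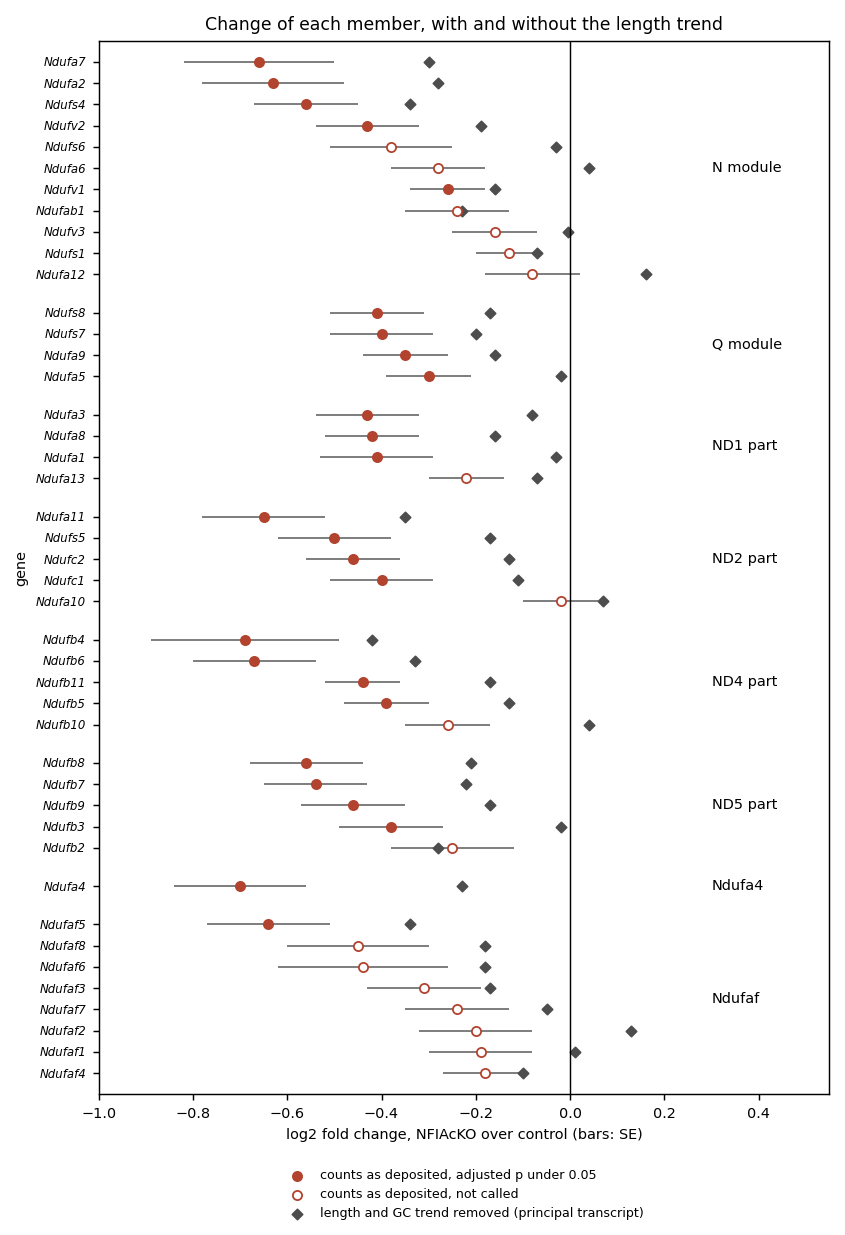
Log2 fold change, NFIAcKO over control, of 43 members (rows, grouped by part of the complex); circles are the counts as deposited with the SE as bars, filled where the adjusted p is under 0.05, and diamonds are the fit with the trend in length and GC content of the principal transcript removed. All 43 circles lie below 0, and the diamonds lie closer to 0 for most members (median of subunits -0.16, against -0.40 for the circles).

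Members of the complex are short transcripts, and in these libraries short transcripts were lower in NFIAcKO across the transcriptome. The principal transcript, the main protein-coding form in the GENCODE M21 annotation, had a median length of 892 bases for subunits and 1308 bases for assembly factors, against 2847 bases over the tested genes. Per doubling of a gene's summed exon length, log2 CPM relative to the mean library changed by 0.0674, 0.0396 and 0.0931 in NFIAcKO replicates 1 to 3, against -0.0645, -0.117 and -0.0188 in control replicates 1 to 3. Control replicate 2, which had the highest level of most members, had the lowest of these slopes. Among the 2629 tested genes with a principal transcript of 650 to 1479 bases, the range between the quartiles of the subunits, 17.0% fell and the median log2 fold change was -0.24, with 76.1% below 0. Over the 44 members the Spearman correlation of log2 fold change with principal transcript length was 0.584, and with summed exon length 0.435. The members share the same libraries, so this is a description.

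**Figure D4:**
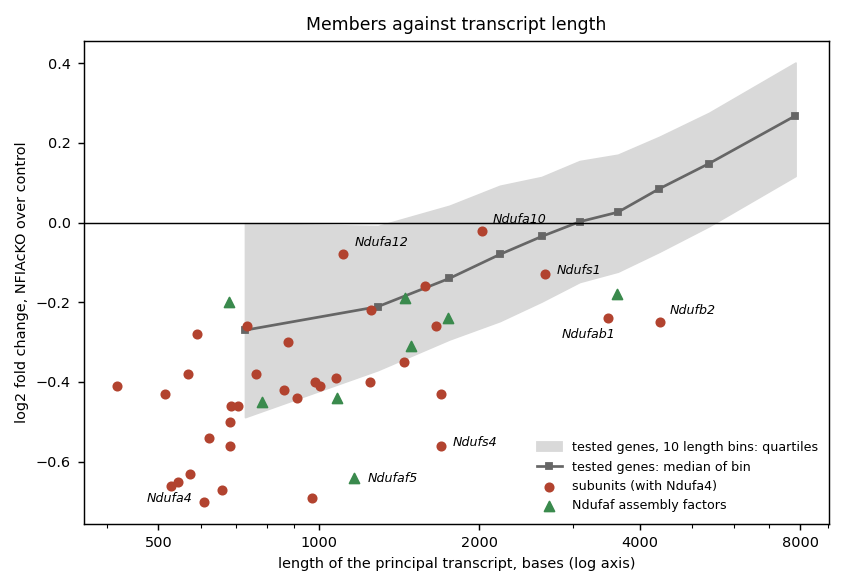
Log2 fold change, NFIAcKO over control (vertical axis), against the length of the principal transcript in bases (horizontal log axis), with subunits as circles and assembly factors as triangles (43 members), and all tested genes in 10 bins of length as a line of medians with the quartiles shaded. The median over all tested genes is -0.27 in the shortest bin and 0.268 in the longest, and Ndufs4, Ndufaf5, Ndufab1 and Ndufb2 lie below the shaded band at their lengths.

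With the trend in length and GC content removed from each library, fewer members passed and every median was nearer to 0. When length was the sum of a gene's exons, 9 of 36 subunits and 1 of 8 assembly factors fell (Ndufaf5), where 3.87% of all tested genes fell, and the medians were -0.18 and -0.15. When length was that of the principal transcript, an alternative chosen after the data were seen, 4 subunits and no assembly factor fell, where 2.72% of all tested genes fell, and the medians were -0.16 and -0.14. The difference between the medians of subunits and assembly factors was -0.03 in the first fit and -0.02 in the second, against -0.13 in the counts as deposited. The 4 members called in both were Ndufs4 (-0.36 and -0.34, adjusted p = 0.0207 and 0.0219), Ndufa7 (-0.46 and -0.30, adjusted p = 0.0388 and 0.0423), Ndufa11 (-0.45 and -0.35, adjusted p = 0.0238 and 0.0354) and Ndufb6 (-0.34 and -0.33, adjusted p = 0.0358 and 0.0409). The fits differ most where the annotated exons sum to far more than the principal transcript, as in Ndufb7 (4522 against 623 bases), which fell in the first fit (-0.59, adjusted p = 0.0235) and not in the second (-0.22, adjusted p = 0.0607). Ndufs1 fell only in the first (-0.23, adjusted p = 0.0345) and not in the second (-0.07, adjusted p = 0.548). What set the trend apart between the groups was not tested.

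**Figure D5:**
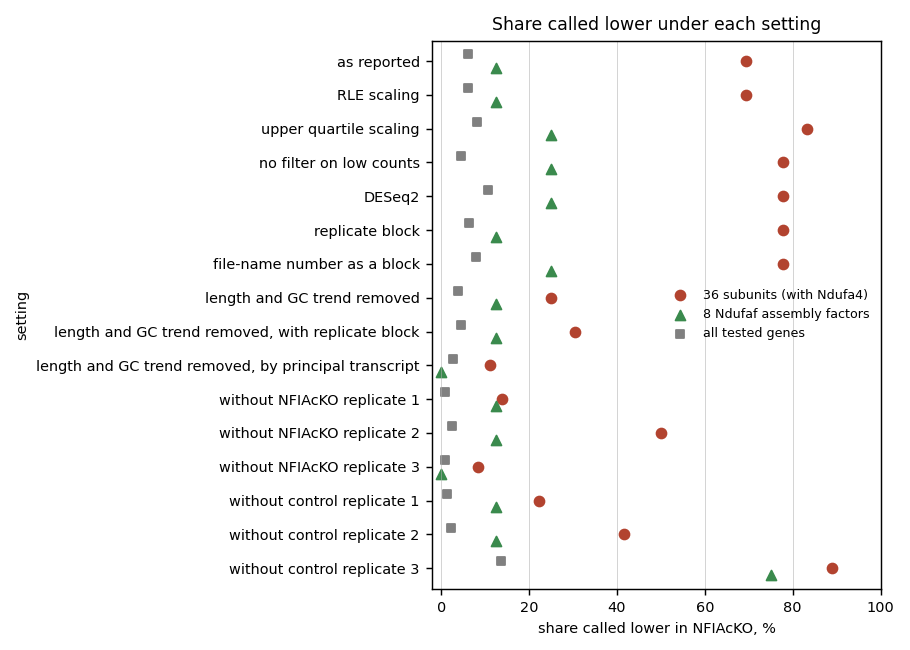
Share called lower in NFIAcKO (horizontal axis, %) under each setting (rows), for the 36 subunits (circles), the 8 Ndufaf assembly factors (triangles) and all tested genes (squares). The squares stand at 6.08% with RLE scaling, 8.10% with upper quartile scaling, 4.58% without a filter on low counts, 6.32% and 7.97% with the replicate number and the file-name number as a block, 3.87% and 2.72% in the fits without the length trend, and 4.47% with that trend removed and the replicate number as a block.

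Set per length, subunits covered a wider range of levels than assembly factors. In CPM per kilobase of summed exons, the 35 subunits without Ndufa4 ran in NFIAcKO libraries from 1.53 for Ndufb4 to 88.7 for Ndufc2, with a median of 30.4, and in control libraries from 2.46 for Ndufb4 to 122 for Ndufc2, with a median of 40.9. Assembly factors ran in NFIAcKO libraries from 4.61 for Ndufaf6 to 11.0 for Ndufaf1, with a median of 8.15, and in control libraries from 6.24 for Ndufaf6 to 16.9 for Ndufaf5, with a median of 9.48. Per kilobase of principal transcript the medians of subunits were 56.4 in NFIAcKO and 70.0 in control libraries, and those of assembly factors 12.0 in NFIAcKO and 14.0 in control libraries.

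No complex I subunit encoded by mtDNA was called in the counts as deposited. Of 7 genes 5 were tested and none was called by edgeR or DESeq2. At an unadjusted p under 0.05, 1 (mt-Nd6) was higher in edgeR, where 2792 of all 17711 tested genes were. In DESeq2 2 were higher, none was lower in either, and the median edgeR log2 fold change was 0.16. The genes mt-Nd3 and mt-Nd4l were listed at 0 in every library. The tested genes summed to 9511, 9957 and 11496 CPM in NFIAcKO libraries, against 9111, 9872 and 8741 CPM in control libraries. The groups overlapped. With the length and GC trend of summed exons removed, 4 of the 5 rose (mt-Nd1, mt-Nd2, mt-Nd4 and mt-Nd5, at 0.49 to 0.63), where 3.82% of all tested genes rose. These are short genes, which the removal raises, and whether the trend applies to mtDNA was not tested.

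Among 10 tested assembly genes of complex I outside the Ndufaf family, 3 fell, none rose and 7 did not pass, with a median of -0.21. Of all tested genes 6.08% fell. Dmac1, a factor for the distal membrane arm, fell by 0.47 log2 units (26.1, 28.1 and 24.9 CPM in NFIAcKO, against 35.3, 43.2 and 31.0 CPM in control libraries; adjusted p = 0.0164). Foxred1, a flavoprotein needed for assembly, and Tmem70, an assembly factor of ATP synthase that also serves complex I, fell by 0.31 and 0.42 (adjusted p = 0.0479 and 0.0494). Ecsit, Acad9 and Tmem126b, partners of Ndufaf1, did not pass (-0.30, -0.18 and -0.21). With the summed-exon trend removed 2 fell, Foxred1 and Acad9 (both -0.33), where 3.87% of all tested genes fell. With the principal transcript trend none did in edgeR, where 2.72% did over all tested genes. At an unadjusted p under 0.05, 4 were lower in that fit, as were 1998 of all 17711 tested genes. Dmac1 and Tmem70 had no call in either fit (-0.15 and -0.14 in the first, -0.16 and -0.20 in the second). None fell without NFIAcKO replicate 1, NFIAcKO replicate 3 or control replicate 1, 1 fell without NFIAcKO replicate 2 or control replicate 2, and 6 fell without control replicate 3. Of all tested genes 13.55% fell without control replicate 3, and 0.764 to 2.37% in each of the other fits without a library.

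Other entry points of electrons to ubiquinone were lower for part of their genes. Of 9 tested genes 6 fell, none rose and 3 did not pass, with a median of -0.36, where 6.08% of all tested genes fell. Sdhd, a membrane anchor of complex II, stood at 69.3, 71.8 and 65.5 CPM in NFIAcKO libraries, against 107, 125 and 84.9 CPM in control libraries, and fell by 0.62 log2 units (SE 0.11, adjusted p = 0.0073). Sdhb, the iron-sulfur subunit of complex II, fell by 0.36 (adjusted p = 0.0137), and Etfb, a subunit of the electron transfer flavoprotein, fell by 0.80 from a level of 1.72 to 2.42 CPM in NFIAcKO and 3.05 to 3.91 CPM in control libraries (adjusted p = 0.0189). The flavoprotein subunit of complex II, Sdha, was at 200 to 207 CPM in NFIAcKO and 169 to 204 CPM in control libraries (0.12, adjusted p = 0.382). With the summed-exon trend removed 3 fell (median -0.22), where 3.87% of all tested genes fell. With principal transcript length in the removed trend 2 fell (median -0.14), where 2.72% of all tested genes fell. These were Sdhd and Sdhc (-0.39 and -0.31, adjusted p = 0.0202 and 0.041). The calls of Sdhb and Etfb were lost (adjusted p = 0.184 and 0.0808). The number that fell was 1 without NFIAcKO replicate 1 or NFIAcKO replicate 3, 2 without control replicate 1 or control replicate 2, 3 without NFIAcKO replicate 2 and 6 without control replicate 3. Over all tested genes the share was 13.55% without control replicate 3 and 0.764 to 2.37% in the other fits.

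Among known regulators of respiratory genes the calls were in the other direction. Of 15 tested, 4 rose, none fell and 11 did not pass, with a median of 0.06. Of all tested genes 7.86% rose and 6.08% fell. DESeq2 gave the same counts, and upper quartile scaling gave 3 that rose and 1 that fell. At an unadjusted p under 0.05 in edgeR, 4 were higher and 2 lower, where 2792 and 2488 of all 17711 tested genes were. Esrrg, an estrogen-related receptor that drives mitochondrial genes, stood at 228, 206 and 209 CPM in NFIAcKO libraries, against 159, 140 and 162 CPM in control libraries. All NFIAcKO libraries were higher, and it rose by 0.48 log2 units (SE 0.08, adjusted p = 0.00549), in all 6 fits without a library. Pprc1, a coactivator of the PGC1 family, and Esrrb rose by 0.39 and 0.46 (adjusted p = 0.0155 and 0.0236), and Ppargc1a, which encodes the coactivator PGC1-alpha, rose by 0.34 (adjusted p = 0.049). Of 6 fits without a library, Pprc1 and Esrrb were called in 1 each and Ppargc1a in 2. The number that rose was 1 without NFIAcKO replicate 1, NFIAcKO replicate 3, control replicate 1 or control replicate 2, 2 without NFIAcKO replicate 2 and 5 without control replicate 3. Of the 17711 genes 2698 rose without control replicate 3, and 282 to 697 in each of the other fits without a library. The 4 genes that rose have long transcripts. Over all tested genes, length bins with median lengths of 4354, 5393 and 7835 bases had median log2 fold changes of 0.085, 0.148 and 0.268. With the summed-exon trend removed Esrrg, Esrrb and Pprc1 rose (3.82% of all tested genes rose in that fit). Gabpb1 fell in it (-0.26, adjusted p = 0.0423). With the principal transcript trend removed Esrrg and Esrrb were called (0.40 and 0.36, adjusted p = 0.0148 and 0.0485; 2.94% of all tested genes rose in that fit), and Pprc1 and Ppargc1a were not (adjusted p = 0.091 and 0.205), while Tfam, the packaging factor of mtDNA, fell (-0.25, adjusted p = 0.0434). Nrf1 itself, whose motif is described above, did not pass (0.05, adjusted p = 0.716).

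Among symbols close to the family but outside the rule, Ndufb1-ps, annotated as a noncoding transcript, fell (28.6, 30.8 and 28.7 CPM in NFIAcKO, against 43.8, 52.4 and 33.3 CPM in control libraries; -0.56, SE 0.13, adjusted p = 0.0168). It overlaps Cpsf2 by 147 bases. Its call was kept in 3 of 6 fits without a library. It was lost with the summed-exon trend removed (-0.34, adjusted p = 0.0619) and with the principal transcript trend removed (-0.36, adjusted p = 0.0752). Ndufa4l2, the relative of Ndufa4 induced by hypoxia, did not pass (-0.21, adjusted p = 0.427).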

How the data were processed

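RNA from whole spinal cords of 6 mouse embryos was prepared with the RNeasy Mini Kit and sequenced as stranded mRNA libraries, per the labels' protocols. Deposited were whole-number counts for each gene in 1 table per library, with no normalization. HTSeq, the mm10 build, STAR 2.6.1a and DESeq2 appear in the submitters' processing notes, with no role for each. Neither the annotation release nor the strand setting is given in the sources used here, and counts of overlapping genes, in either direction, are therefore uncertain. Exons of 17 members, 9 of them called, overlap another annotated gene.

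Each table held 55433 genes plus summary lines, which made up 16.9 to 19.4% of its total and were left out. Counts in genes were 48947073, 48405312 and 47388945 in NFIAcKO replicates 1 to 3, and 43393053, 51465763 and 45544664 in control replicates 1 to 3. At these depths a floor of 3 counts is 0.0583 to 0.0691 CPM, for counting error only. Libraries of 1 group differed in each pair beyond sampling noise (chi-square per degree of freedom 10.9 to 45.3, over genes with at least 10 counts in the pair). P-values measure the spread between these libraries.

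NFIAcKO was compared with control by the robust quasi-likelihood test of edgeR 4.0.16 (R 4.3.3, limma 3.58.1) with TMM scaling, on the 17711 genes that filterByExpr kept, with no covariate. Adjusted p values are edgeR's over all tested genes unless DESeq2 is named, and SE is the size of the log2 fold change divided by the root of the F statistic. The biological coefficient of variation was 11.5%. Alternatives were RLE and upper quartile scaling, no filter, DESeq2 1.42.0, the replicate number or the file-name number as a block, removal of a trend with length and GC content (natural splines with 5 degrees of freedom, fitted where the mean log2 CPM of a gene was above 1, used as offsets), and leaving out each library. Gene positions, lengths and overlaps came from GENCODE M21 (GRCm38), in which 53642 symbols were found. Length and GC content were known for 98.8% of tested genes. Copies were found by aligning principal transcripts to all transcripts, and RefSeq (GRCm38.p6) gave the promoters.

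Values of 1 member are not reported here on their own. The members, gene lists and rules were chosen with earlier results of these data known. Named members are Nfia, the core subunits, all Ndufaf genes, Ndufa4 and, in each structural part, the 3 with the smallest p and the 1 with the largest; in other lists up to 3 with the smallest p. Ndufa7, Ndufs6, Ndufa6, Ndufab1, Ndufv3, Ndufa5, Ndufc1, Ndufb4, Ndufb3, Ndufs3, the genes outside the symbol rule, and Sdha, Sdhc, Ecsit, Acad9, Tmem126b, Ppargc1a, Gabpb1, Tfam and Nrf1 were named after their values were seen.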

Additional observations from a re-analysis of the deposited data

How the results depend on the processing

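The count of 25 subunits that fell stayed within 1.5 times under RLE scaling (25), upper quartile scaling (30), no filter on low counts (28) and DESeq2 (28). The share of tested genes that fell was 6.08, 8.10, 4.58 and 10.6% in those fits. The subunit count was 9 with the length and GC trend removed and 11 with the replicate block as well. It was 4 with the principal transcript trend removed. Medians were -0.18, -0.18 and -0.16, and 3.87, 4.47 and 2.72% of all tested genes fell. Leaving out 1 library gave 3 to 32 subunits and 0 to 6 assembly factors. Assembly factors that fell were 2 with upper quartile scaling, no filter, DESeq2 or the file-name number as a block, and 0 with the principal transcript trend; their median was -0.14 with that trend and with trend removal plus the replicate block. No setting gave a subunit or assembly factor that rose. The direction turned, without a call, for Ndufa10 with the trend removed (0.03, also with the replicate block), with the principal transcript trend (0.07) and without NFIAcKO replicate 1 (0.02; its lowest value without a library was -0.06). It turned for Ndufa12 (0.14, 0.14 with the block, 0.16) and Ndufaf1 (0.06, 0.06 with the block, 0.01), and with the principal transcript trend alone for Ndufa6 (0.04), Ndufb10 (0.04) and Ndufaf2 (0.13). The cause of these changes was not tested.

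The groups share replicate numbers in the labels. Same-numbered libraries deviated from their group means with correlations of 0.0875, 0.12 and 0.119, and differently numbered ones with -0.0894 to -0.0369, so each library correlated best with its own number, as a hint from the data and not from the design. One pair is under 0.1, so the numbers are not taken to pair the libraries. With the replicate block 28 subunits and 1 assembly factor fell, where 6.32% of all tested genes fell. With the file-name number as a block 28 and 2 fell, where 7.97% of all tested genes did.

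With 3 libraries a group, calls near the threshold depend on single libraries. Levels of members lie above the floor of 3 counts, but genes that share sequence or exons with another cannot be resolved further from counts per gene.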
